A study of Manis javanica with 3 samples.

Results

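The genes described here encode transporters of sugars, monocarboxylates, sugar phosphates and nucleotide sugars. They were taken from the annotation of the Malayan pangolin (Manis javanica) as all genes whose Swiss-Prot entry carries a symbol starting with SLC2A, SLC5A, SLC16A, SLC35, SLC37A, SLC45A or SLC50A. This gave 70 of the 22538 annotated genes, of which 68 were among the 24220 genes of the expression tables. SLC35F6 and SLC5A3 were the other 2 and were not analysed here. Of the 68 measured genes, 16 belonged to SLC2A, 10 to SLC5A, 15 to SLC16A, 18 to SLC35, 3 to SLC37A, 5 to SLC45A and 1 to SLC50A.

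Libraries of poly(A) RNA were made from liver, salivary glands and small intestine of 1 adult female M. javanica, a wild animal that died while being rescued, with 1 library per tissue. The libraries were compared with each other to describe the organs of an animal that feeds on ants and termites. The tables hold, for every gene, the fragments counted and the FPKM. The authors define the FPKM from the fragments, the length of the transcript and all mapped fragments of the library. As each tissue is a single library, no difference below has a replicate check, no p-value is given, and every interval covers counting error only.

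Glucose and other hexoses cross membranes either passively, through the GLUT proteins of the SLC2A family, or against a gradient with sodium, through the SGLT proteins of the SLC5A family. In mammals, absorption of dietary glucose runs from SGLT1 on the intestinal brush border to GLUT2 on the opposite face of the cell, while GLUT2 also carries glucose in and out of hepatocytes. The MCT proteins of the SLC16A family move lactate, pyruvate, ketone bodies and, for some members, amino acids or thyroid hormones. SLC35 proteins bring nucleotide sugars into the Golgi and the endoplasmic reticulum, where glycosyltransferases use them, and SLC37A proteins exchange sugar phosphates for phosphate.

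The total counts were 10158924 fragments in the library labelled small intestine, 8318686 in that of the salivary glands and 14568778 in that of the liver. A count of 0 in these libraries allows up to 3 counts, or 0.347, 0.309 and 0.205 CPM after scaling. The liver library carried its defining markers, with all 11 hepatocyte genes above an FPKM of 1 and a median of 434. Of these genes, 4 were above 1 in the library labelled small intestine and 3 in the salivary glands. Their summed FPKM was 132 in the library labelled small intestine, 176 in the salivary glands and 28696 in the liver. In the salivary gland library, 4 of 7 salivary marker genes were above 1, against 3 in the library labelled small intestine and 2 in the liver. AQP5, PIP and LTF were highest in the salivary glands. KRT5 was at 88.2 in the library labelled small intestine and 55.0 in the salivary glands. The 3 genes annotated as the lactoperoxidase LPO were at an FPKM of 0.175 or less in the salivary glands. The library labelled small intestine went against its label in part. In it, 7 of the 23 enterocyte marker genes were above 1, against 6 in the salivary glands and 9 in the liver, and their median was 0.068. Their summed FPKM was 103 in the library labelled small intestine, 66.0 in the salivary glands and 189 in the liver. Of the liver sum, 114 came from gene10946, with the symbol SI. FABP1, FABP2 and LCT had no fragment in any of the 3 libraries. Of the 4 enterocyte list genes with the symbol LGALS4, gene16692 was at 45.9 in the library labelled small intestine, 1.63 in the salivary glands and 0 in the liver. Gene16693 was at 1.20, 0 and 0.061 in the same order. Gene11145, at 2.12, 4.55 and 3.04, and gene23231, at 5.85, 8.22 and 15.5, were lowest in the library labelled small intestine. In the library labelled small intestine, 11 of 15 genes of the gastric epithelium were above 1, with a median FPKM of 262 and a summed FPKM of 66864, against sums of 59.1 in the salivary glands and 5.02 in the liver. It is called the intestine-labelled library below, and the comparison of liver with salivary glands is the one that does not use it. In bulk tissue, fewer cells of a type and less RNA per cell cannot be told apart.

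The Swiss-Prot symbol often stood for a relative of the gene. Only 37 different symbols covered the 70 genes, and 11 genes were all called SLC16A1, whereas the product names in the NR entries separated 62 genes. For 25 genes the names differed, so every transporter gene is named below by its NR entry. Genes of the enzyme, partner and marker lists are named by the Swiss-Prot symbol, which can also stand for a relative. GLUT5 was represented by 2 genes. GLUT9 was represented by 3 genes, and GLUT3, SLC35D2, SLC45A2 and SMCT2 by 2 genes each, where the RefSeq gene table of M. javanica (assembly MJ_LKY) lists 1 gene for each of these symbols. Fragments of such copies could be split between the genes, and their single values are uncertain to that extent.

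In each library, 41 to 44 of the 68 genes were expressed, taken as an FPKM above 1. The number was 41 in the intestine-labelled library, 41 in the salivary glands and 44 in the liver, which is 60.3%, 60.3% and 64.7% of the transporter genes against 59.4%, 56.3% and 57.0% of all genes. A total of 34 genes were expressed in all 3 libraries and 17 in none. Of the 51 genes expressed somewhere, 30 had their highest FPKM in the liver, 11 in the salivary glands and 10 in the intestine-labelled library. The matching shares of all genes are not given, so these counts cannot be set against them. The summed FPKM of all 68 genes was 332 in the intestine-labelled library, 404 in the salivary glands and 982 in the liver. Without MCT10, the highest gene there, the liver sum was 696.

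Differences between libraries were measured as ratios of counts scaled by TMM, which sets the bulk of genes of 2 libraries to the same level. A gene with at least 10 fragments in 1 of the 2 libraries was called where the ratio was at least 2-fold. Of the transporter genes, 34 of 56 were called in either direction between liver and intestine-labelled library (60.7% against 48.3% of all genes), 35 of 57 between liver and salivary glands (61.4% against 47.9%) and 29 of 53 between intestine-labelled library and salivary glands (54.7% against 37.6%). Between liver and intestine-labelled library, 26 of 56 transporter genes were called higher in the liver, which is 46.4% against 24.0% of all genes tested, and 8 were called lower, or 14.3% against 24.2%. Between liver and salivary glands, 23 of 57 were higher in the liver (40.4% against 24.9%) and 12 were lower (21.1% against 22.9%). Between the intestine-labelled library and the salivary glands, 12 of 53 were higher in the former (22.6% against 20.6%) and 17 were lower (32.1% against 16.9%). Scaled by library size alone, this last comparison gave 8 higher and 22 lower. The median log2 ratio of the transporter genes was 0.84 for liver over intestine-labelled library, 0.71 for liver over salivary glands and -0.19 for intestine-labelled library over salivary glands, where that of all genes was 0.08, 0.07 and -0.02. Scaling by library size alone moved the median of all genes by 0.24, -0.22 and -0.46 in the same order, and the changes given below are relative to the TMM scale.

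Of 57 genes with enough fragments for at least 1 comparison, 14 were higher in the liver than in both other libraries, or 24.6% where 15.9% of all genes were. There were 8 such genes in the salivary glands (14.0% against 9.0%) and 4 in the intestine-labelled library (7.02% against 12.2%). Lower than in both others were 11 genes in the intestine-labelled library (19.3% against 5.26%), 7 in the salivary glands (12.3% against 6.81%) and 4 in the liver (7.02% against 12.3%). No call was made for 7 genes, or 12.3% where 35.0% of all genes had none.

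**Figure D1:**
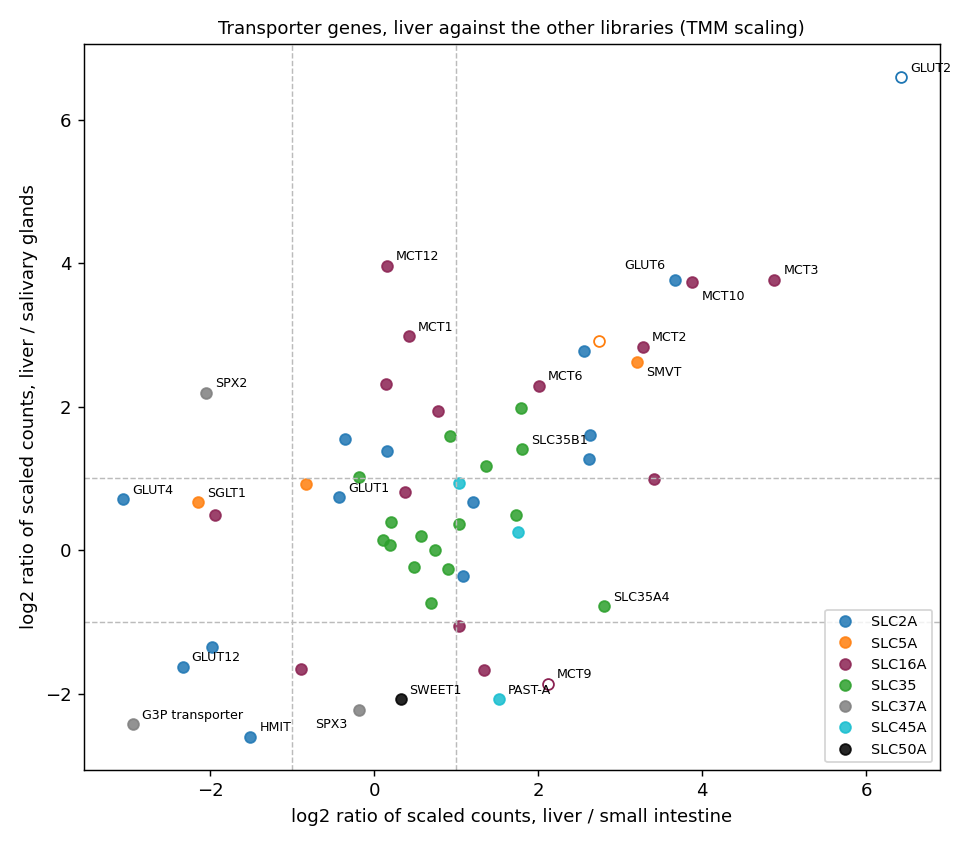
Each point is 1 of 56 transporter genes with enough fragments in both comparisons, with the log2 ratio of TMM-scaled counts of liver over the library labelled small intestine on the x axis and of liver over salivary glands on the y axis. Colours mark the families, dashed lines mark 2-fold, open points are genes with a count of 0 in a library, whose ratio is a bound, and 32 of the 56 points lie above 0 on both axes, with GLUT2 at the upper right. The share of all genes above 0 on both axes is not given.

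The SLC2A family carries hexoses by facilitated diffusion. Its summed FPKM was 112.2 in the intestine-labelled library, 76.9 in the salivary glands and 157 in the liver, and the member at the top differed between them: GLUT1, GLUT8 and GLUT6 in that order. Against the intestine-labelled library, 7 of 14 members were higher and 4 lower in the liver, where 24.0% of all genes were higher and 24.2% lower. Against the salivary glands 7 were higher and 3 lower, where 24.9% and 22.9% of all genes were.

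GLUT2 (gene9784, scaffold NW_016533842.1, 22718 to 55281), the low-affinity glucose carrier of hepatocytes and enterocytes, was counted in the liver only. It had 0 fragments in the intestine-labelled library, 0 in the salivary glands and 436 in the liver, where its FPKM was 8.59. With 3 counts in place of 0, its liver level was 85.9-fold higher than in the intestine-labelled library and 96.5-fold higher than in the salivary glands. The counting intervals started at 69.5 and 78.2.

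GLUT6 (gene10122), a carrier that sits on intracellular membranes, was the most abundant hexose transporter of the liver. Its FPKM was 2.27 in the intestine-labelled library, 1.69 in the salivary glands and 39.0 in the liver, from 76, 80 and 1640 fragments. The liver count was 12.7-fold higher than in the intestine-labelled library (95% counting interval 10.1 to 16.3) and 13.6-fold higher than in the salivary glands (10.9 to 17.3). The log2 ratio over the salivary glands was 3.77 from counts and 4.53 from FPKM. GLUT6 is known from leukocytes among other cells, and 3 of the 4 macrophage marker genes were also highest in the liver, while gene1406, with the symbol C1QA, was at 3.52, 0.841 and 0.852. The summed FPKM of the 4 was 49.0, 36.4 and 705 in the same order, with no marker at 0. Their part in the GLUT6 level was not tested.

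All 3 genes annotated as GLUT9, the urate and hexose carrier of liver and kidney, were higher in the liver. Gene22568 had an FPKM of 2.44, 6.35 and 14.1 in the intestine-labelled library, the salivary glands and the liver. Gene22400 had 2.14, 4.06 and 11.0. The GLUT9-like gene21792 had 0.942, 0.764 and 5.94. Over the intestine-labelled library the liver counts were 6.17-fold, 6.20-fold and 5.88-fold higher, and over the salivary glands 2.41-fold, 3.03-fold and 6.88-fold higher. The transcript models of gene22568 and gene22400 were 805 and 845 bases long, and that of gene21792 was 3058 bases long. The call of gene22400 between the intestine-labelled library and the salivary glands, from 10 and 23 fragments, had a counting interval that included 1.

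GLUT4 (gene17490, scaffold NW_016541994.1, 237975 to 243996), the insulin-responsive carrier of muscle and fat, stood out in the intestine-labelled library. Its FPKM was 21.1 there, 1.55 in the salivary glands and 2.30 in the liver, from 633, 52 and 128 fragments. It was 13.7-fold higher than in the salivary glands (10.3 to 18.5) and 8.37-fold higher than in the liver (6.91 to 10.2). Of the skeletal muscle marker genes, 3 of 8 were above an FPKM of 1 in it and 3 in the salivary glands, their sums were 34.6, 35.3 and 2.09 in the intestine-labelled library, the salivary glands and the liver, and MYH1 and MYH2 had no fragment in the first. All 3 muscle genes tested between the liver and the intestine-labelled library were called lower in the liver, where 24.2% of all genes were. So were all 5 tested between the liver and the salivary glands, where 22.9% of all genes were. Of the muscle genes, the creatine kinase CKM was highest in the same library as GLUT4, at 24.8, 2.42 and 0.033. ACTA1 (gene18927) was highest in the salivary glands, at 0.870, 26.8 and 0. The other gene with the symbol ACTA1, gene12597, was highest in the intestine-labelled library, at 1.30, 0.390 and 0.163. TNNT3 and MB (gene10375) were also highest in the intestine-labelled library, and MYH1, MYH2 and MB (gene13001) in the salivary glands. The part of muscle in the GLUT4 level was not tested. GLUT4 overlaps YBX1 on the other strand over 876 bases, and the libraries do not mark strand. YBX1 had 18, 23 and 5 fragments, and the part of the overlap in the GLUT4 count was not tested.

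GLUT1 (gene17690), which serves basal glucose uptake in most cells, was at 28.5 in the intestine-labelled library, 11.9 in the salivary glands and 19.2 in the liver. Its count was 2.24-fold higher in the first than in the salivary glands, a call that was lost when counts were scaled by library size alone (log2 ratio 0.71 in place of 1.17). GLUT3, a high-affinity carrier known from neurons, was lower in the salivary glands in both of its genes. Gene4501 was at 9.45, 2.45 and 7.38, and gene10522 at 2.02, 0.811 and 2.29. Gene4501 was 3.75-fold higher in the intestine-labelled library and 2.92-fold higher in the liver than in the salivary glands. The call of gene10522 between the intestine-labelled library and the salivary glands was lost with library size alone (log2 ratio 0.77 in place of 1.23).

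GLUT8 (gene23958), an intracellular hexose carrier, was expressed in every library, with an FPKM of 18.0 in the intestine-labelled library, 23.9 in the salivary glands and 33.5 in the liver. Its count was 2.30-fold higher in the liver than in the intestine-labelled library, although the FPKM ratio was below 2-fold (log2 ratio 0.90). GLUT10 (gene16246) was at 6.25, 9.89 and 9.54. Its count was 2.70-fold higher in the salivary glands than in the intestine-labelled library, while its FPKM gave a log2 ratio of -0.66 in place of -1.44 for the intestine-labelled library over the salivary glands.

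GLUT11, GLUT12 and HMIT were lower in the liver than in both other libraries. GLUT11 (gene25193) was at an FPKM of 12.7 in the intestine-labelled library, 7.02 in the salivary glands and 2.55 in the liver, and its count was 3.95-fold and 2.55-fold lower there. GLUT12 (gene24063), a further glucose carrier, was at 4.78, 2.90 and 1.18, and its liver count was 5.05-fold and 3.08-fold lower. HMIT (gene5681), which carries myo-inositol with protons, was highest in the salivary glands, at 1.63, 3.56 and 0.795, and its salivary gland count was 2.13-fold higher than in the intestine-labelled library and 6.06-fold higher than in the liver.

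Neither gene annotated as GLUT5, the fructose carrier of the brush border, was expressed. Gene25079 had 0, 0 and 1 fragments and gene9980 none, which is at or under the limit that a count of 0 allows.

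**Figure D2:**
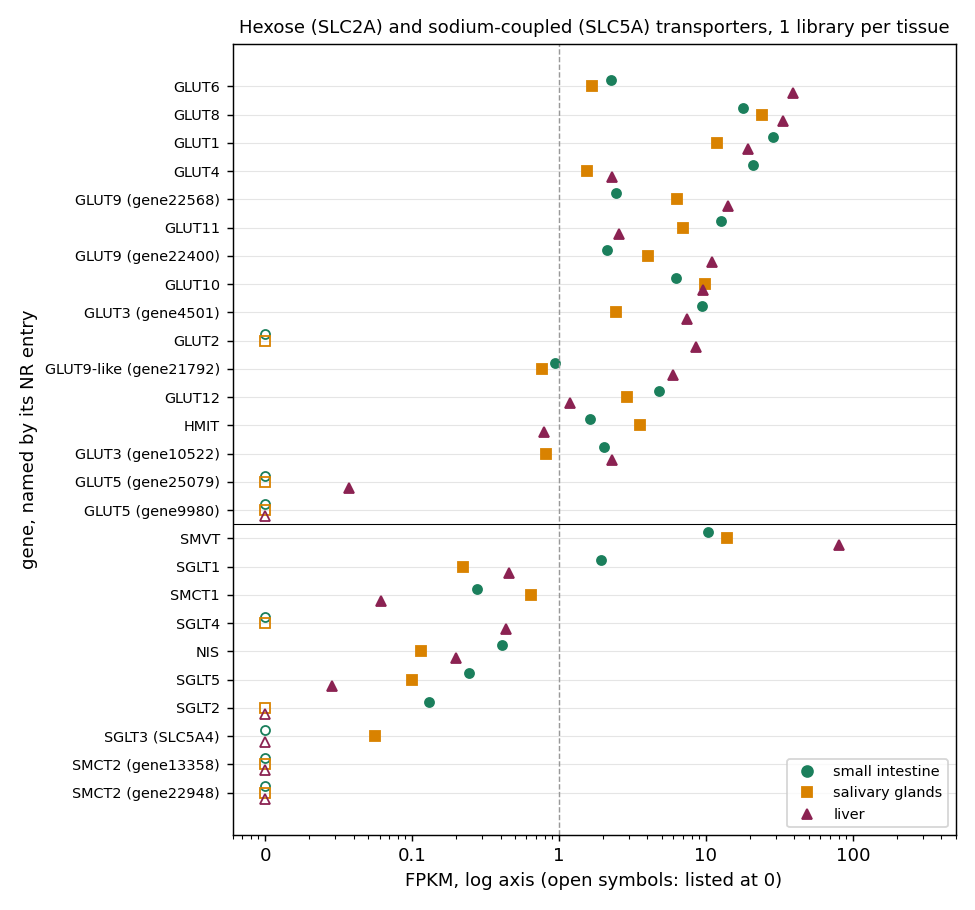
FPKM on a log axis of the 16 SLC2A genes (above the line) and the 10 SLC5A genes (below it) in the libraries labelled small intestine (circles), salivary glands (squares) and liver (triangles), with 1 library each and open symbols for a value of 0. The dashed line marks an FPKM of 1, and among the SLC5A genes only SMVT lies above it in every library.

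The sodium-coupled SLC5A carriers were low apart from 1 gene. SMVT (gene3568, scaffold NW_016529252.1, 271443 to 282910), which takes up biotin, pantothenate and lipoate, had an FPKM of 10.3 in the intestine-labelled library, 13.9 in the salivary glands and 80.3 in the liver, from 273, 460 and 4270 fragments. This was 77.6%, 92.5% and 98.5% of the summed FPKM of the family. The liver count was 9.24-fold higher than in the intestine-labelled library (8.17 to 10.5) and 6.17-fold higher than in the salivary glands (5.60 to 6.80), and SMVT ranked 842 among all genes of the liver. It overlaps gene3567 on the other strand over 707 bases, a gene with 273, 605 and 1096 fragments.

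SGLT1 (gene6542), the sodium-glucose cotransporter of the intestinal brush border, was barely expressed in the intestine-labelled library. Its FPKM was 1.94 there, 0.221 in the salivary glands and 0.457 in the liver, from 63, 10 and 24 fragments. The count in the intestine-labelled library was 7.08-fold higher than in the salivary glands (3.61 to 15.5) and 4.44-fold higher than in the liver (2.74 to 7.44). SGLT1 overlaps SGLT3 on the other strand over 2392 bases. SGLT3, a glucose sensor in humans, had 0, 1 and 0 fragments, and the part of the overlap in the SGLT1 count was not tested.

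The remaining SLC5A genes stayed below an FPKM of 1 in every library. SGLT4 (gene6060), a mannose carrier, had 0, 0 and 34 fragments. With 3 counts in place of 0, it was 6.70-fold higher in the liver than in the intestine-labelled library and 7.53-fold higher than in the salivary glands. The counting intervals started at 5.15 and 5.80. SMCT1 (gene321), a carrier of short-chain monocarboxylates, had 6, 15 and 2 fragments and was called higher in the salivary glands than in both others, but its interval against the intestine-labelled library included 1. NIS (gene25363), the iodide carrier of the thyroid, had 21, 7 and 20 fragments. SGLT2, the glucose carrier of the kidney, had 2, 0 and 0 fragments, SGLT5 had 5, 2 and 2, and both genes of SMCT2 had none.

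Of the families, SLC16A had the widest range of summed FPKM. The sum was 50.9 in the intestine-labelled library, 55.6 in the salivary glands and 463 in the liver, and 8 of 15 members were called higher in the liver in each comparison, where 24.0% of all genes were against the intestine-labelled library and 24.9% against the salivary glands. Called lower in the liver were 1 member against the intestine-labelled library (24.2% of all genes) and 4 against the salivary glands (22.9% of all genes).

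MCT10 (gene2278, scaffold NW_016528460.1, 115877 to 184863), which carries aromatic amino acids and thyroid hormones, had the highest FPKM of any transporter gene in any library. Its FPKM was 17.3 in the intestine-labelled library, 18.8 in the salivary glands and 285 in the liver, from 672, 837 and 16769 fragments. The liver count was 14.7-fold (13.6 to 15.9) and 13.3-fold (12.4 to 14.3) higher than in the other libraries. MCT10 ranked 231 among the genes of the liver and made up 61.6% of the SLC16A sum there.

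MCT2 (gene19703), a high-affinity carrier of pyruvate and lactate, followed with an FPKM of 7.57 in the intestine-labelled library, 16.7 in the salivary glands and 116 in the liver, from 519, 791 and 8526 fragments. Its liver count was 9.70-fold higher than in the intestine-labelled library (8.88 to 10.6) and 7.16-fold higher than in the salivary glands (6.66 to 7.71). From FPKM, the log2 ratio of liver over intestine-labelled library was 3.94 in place of 3.28, and that of intestine-labelled library over salivary glands was -1.14 in place of -0.44, which would have been called. MCT6 (gene25168), known to carry some drugs, was at 7.13, 5.41 and 25.6, and its liver count was 4.02-fold and 4.91-fold higher. MCT3 (gene4929), a lactate carrier known from the retinal pigment epithelium, was at 0.241, 0.527 and 7.48, and its liver count was 29.5-fold (14.1 to 73.8) and 13.6-fold (8.39 to 23.7) higher, from 7, 17 and 349 fragments.

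MCT1 (gene12564), the widespread carrier of lactate, pyruvate and ketone bodies, was low in the salivary glands. Its FPKM was 11.9 in the intestine-labelled library, 2.04 in the salivary glands and 19.6 in the liver, from 277, 53 and 630 fragments. It was 5.88-fold (4.37 to 8.04) and 7.89-fold (5.96 to 10.7) higher in the intestine-labelled library and the liver than in the salivary glands, while those libraries differed by 1.34-fold (1.16 to 1.55). An MCT1-like gene (gene12562) lay 119962 bases away on the same scaffold and strand and had 8, 2 and 15 fragments. MCT4 (gene22133), which exports lactate from glycolytic cells, was low and was called in no comparison, at 1.53, 1.19 and 1.76.

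MCT11, MCT13 and MCT9 were highest in the salivary glands. MCT11 (gene12689) was at 0.340 in the intestine-labelled library, 3.30 in the salivary glands and 0.809 in the liver, and its salivary gland count was 8.01-fold (4.29 to 16.6) and 3.17-fold (2.22 to 4.59) higher. MCT13 (gene12688) was at 1.06, 4.11 and 1.96, with counts 4.27-fold and 2.08-fold higher. Both genes lie on opposite strands of 1 scaffold and overlap over 461 bases, so that fragments there cannot be told apart. MCT9 (gene23081), a carnitine carrier, had 0, 53 and 22 fragments and was 3.63-fold higher in the salivary glands than in the liver (2.17 to 6.26). With 3 counts in place of 0, its salivary gland count was 15.7-fold higher than in the intestine-labelled library, with a counting interval that started at 12.3.

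The other members stayed below an FPKM of 2. MCT8-like (gene9046), related to the thyroid hormone carrier MCT8, was highest in the intestine-labelled library, at 1.84, 0.340 and 0.551, and was 5.42-fold higher there than in the salivary glands and 3.86-fold higher than in the liver. MCT12 (gene3496), a creatine carrier, was at 0.832, 0.0298 and 1.04 from 25, 2 and 47 fragments. Its ratio of intestine-labelled library to salivary glands was 14.1 (3.50 to 122), a log2 ratio of 3.81 that was 4.80 from FPKM. MCT12 spans IFIT3 and 2 genes annotated as IFIT1 on the other strand, which had 530, 3871 and 888 fragments in the liver, and the share of their fragments in the MCT12 count was not tested. MCT14 had 20, 10 and 58 fragments, MCT5 had 11, 21 and 10, and MCT7, which lies within ARSG on the other strand, had 1, 6 and 18.

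**Figure D3:**
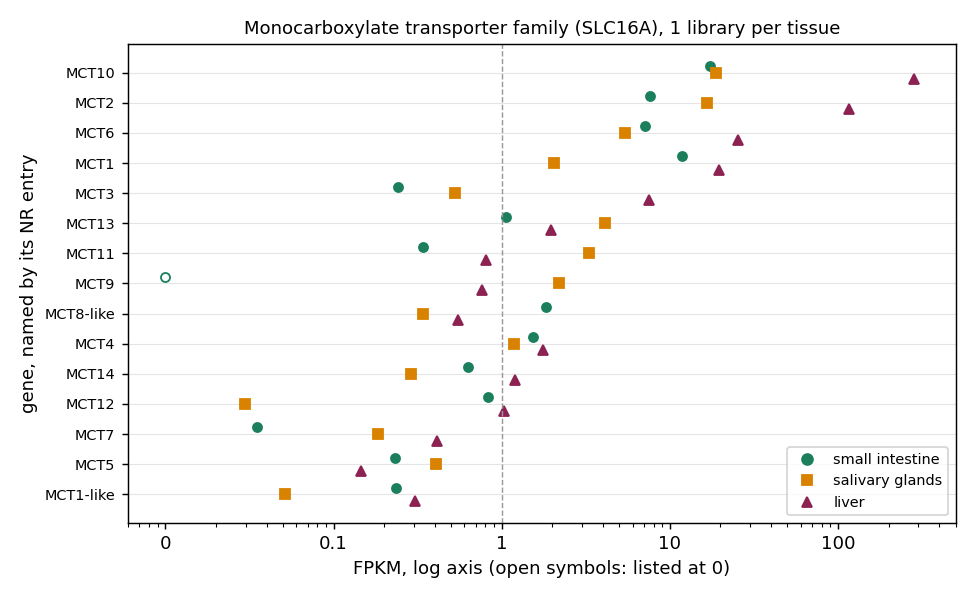
FPKM on a log axis of the 15 SLC16A genes in the libraries labelled small intestine (circles), salivary glands (squares) and liver (triangles), with 1 library each and an open symbol for a value of 0. The liver symbol lies apart to the right for MCT10, MCT2, MCT6 and MCT3, and the salivary gland symbol for MCT13, MCT11 and MCT9.

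Of 16 SLC35 genes with enough fragments, 10 were called in at least 1 comparison and 6 in none, where 35.0% of all genes were called in none. None was called lower in the liver than in the intestine-labelled library or the salivary glands, where 24.2% and 22.9% of all genes were. Higher in the liver were 6 against the intestine-labelled library (24.0% of all genes) and 5 against the salivary glands (24.9% of all genes). Between the intestine-labelled library and the salivary glands, 1 was higher in the former and 4 were lower, where 20.6% and 16.9% of all genes were.

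UDP-N-acetylglucosamine, the activated form of the sugar that chitin is built of, is carried by SLC35A3, SLC35B4 and SLC35D2. SLC35A3 (gene15115) had an FPKM of 8.09 in the intestine-labelled library, 7.93 in the salivary glands and 12.8 in the liver, from 280, 305 and 509 fragments. Its counts were close to each other in the 3 libraries, with ratios of 1.03 (0.874 to 1.22) for intestine-labelled library over salivary glands, 1.07 (0.926 to 1.25) for liver over intestine-labelled library and 1.11 (0.960 to 1.28) for liver over salivary glands. SLC35B4 (gene11237), which also carries UDP-xylose, was higher in the liver, at 1.05, 0.904 and 4.40, and its count was 3.46-fold (2.58 to 4.72) and 3.96-fold (2.94 to 5.42) higher there.

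SLC35D2 was represented by 2 genes that did not move together. Gene4790 was lower in the salivary glands, at 6.85, 2.23 and 5.20, and its count was 2.31-fold higher in the intestine-labelled library and 2.03-fold higher in the liver. Both calls were lost with scaling by library size alone. The SLC35D2-like gene11514 was at 1.71, 1.48 and 2.33 and was called in no comparison. SLC35D3 (gene24280) had no fragment in any library.

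Carriers of other nucleotide sugars supply sialic acid, galactose and fucose for glycans. The CMP-sialic acid carrier SLC35A1 (gene15402) was at 6.33 in the intestine-labelled library, 10.2 in the salivary glands and 10.2 in the liver, and was not called. The UDP-galactose carrier SLC35A2 (gene15252) was at 4.77, 11.0 and 7.27, and its count was 2.69-fold higher in the salivary glands than in the intestine-labelled library (2.16 to 3.37). The GDP-fucose carrier SLC35C1 (gene7893) was at 2.87, 2.45 and 7.85, and its count was 2.58-fold and 2.26-fold higher in the liver than in the other libraries.

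SLC35B1 (gene3434), which exchanges ATP and ADP across the membrane of the endoplasmic reticulum, was the most abundant SLC35 gene of each library. Its FPKM was 27.7 in the intestine-labelled library, 35.3 in the salivary glands and 86.5 in the liver, from 238, 353 and 1410 fragments. The liver count was 3.50-fold higher than in the intestine-labelled library (3.05 to 4.03) and 2.65-fold higher than in the salivary glands (2.36 to 2.99). The carriers of the sulfate donor PAPS were SLC35B2 (gene18070), at 11.5, 17.1 and 15.9 and without a call, and SLC35B3 (gene18685), at 1.40, 3.42 and 6.58, whose count in the intestine-labelled library was 2.35-fold lower than in the salivary glands and 3.31-fold lower than in the liver.

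Members without an established substrate included SLC35A4 (gene4427), which was at 0.366, 4.17 and 2.22 and 12.0-fold lower in the intestine-labelled library than in the salivary glands (5.28 to 33.7). SLC35A5 (gene499) was at 5.20, 11.5 and 13.0. SLC35E2-like (gene9925) was nearly level, at 14.0, 14.1 and 15.4, and SLC35F5 (gene11105) was at 9.84, 12.0 and 16.0, and neither was called. SLC35E3 was at 3.08, 2.63 and 5.58 and SLC35G2 at 0.870, 1.45 and 2.41, while the gene named AMAC1, with the symbol SLC35G3, had 0, 0 and 2 fragments.

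**Figure D4:**
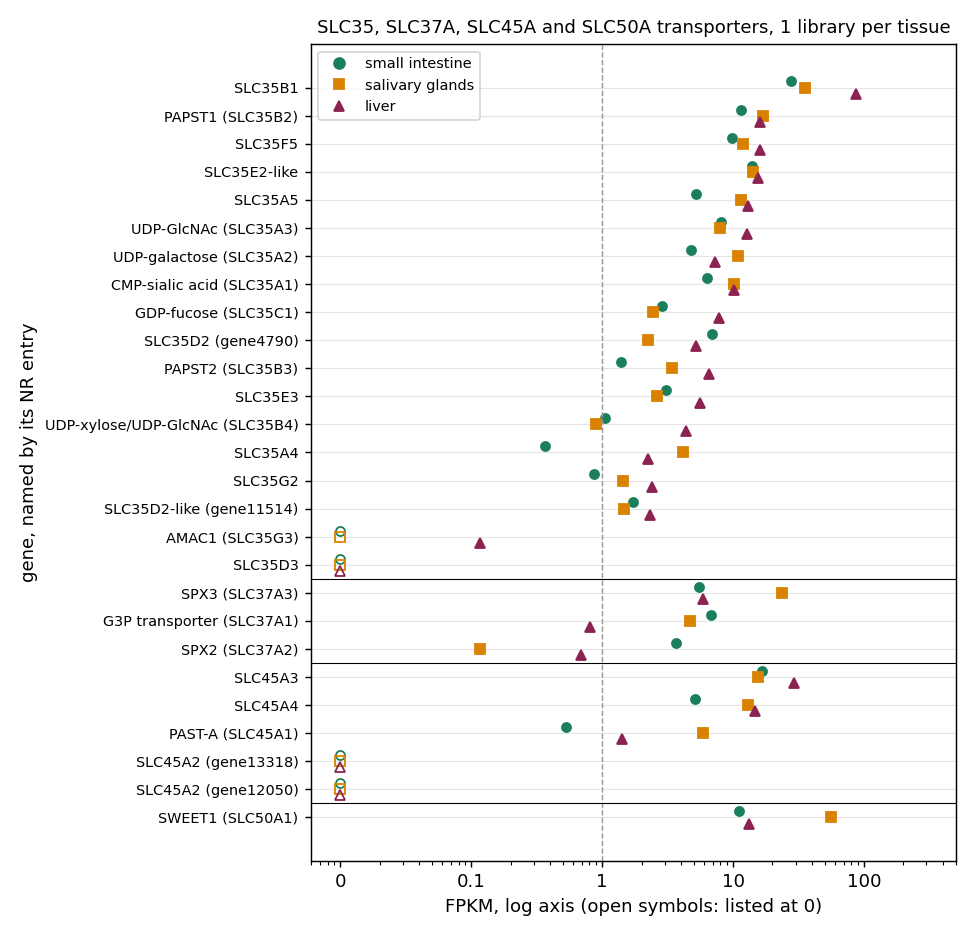
FPKM on a log axis of the SLC35, SLC37A, SLC45A and SLC50A genes, with families divided by lines, in the libraries labelled small intestine (circles), salivary glands (squares) and liver (triangles), with 1 library each and open symbols for a value of 0. The 3 symbols lie close together for SLC35E2-like and SLC35F5 and apart for SLC35A4, and the salivary gland symbol lies apart to the right for SPX3 and SWEET1.

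SWEET1 (SLC50A1, gene18197, scaffold NW_016542988.1, 404136 to 406703), the single mammalian member of a family of sugar carriers known from plants, was the most abundant transporter gene of the salivary glands. Its FPKM was 11.2 in the intestine-labelled library, 55.7 in the salivary glands and 13.2 in the liver, from 95, 562 and 201 fragments. The salivary gland count was 5.26-fold higher than in the intestine-labelled library (4.23 to 6.61) and 4.21-fold higher than in the liver (3.58 to 4.97), and SWEET1 ranked 923 among the genes of the salivary glands.

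Each of the 3 SLC37A genes had its own pattern. SPX3 (SLC37A3, gene1222) was highest in the salivary glands, at 5.52, 23.7 and 5.91, and its count there was 4.08-fold (3.35 to 5.02) and 4.66-fold (3.93 to 5.55) higher. SPX2 (SLC37A2, gene12522) was highest in the intestine-labelled library, at 3.64, 0.117 and 0.686 from 152, 9 and 62 fragments, and was 19.0-fold higher there than in the salivary glands (9.74 to 42.3) and 4.15-fold higher than in the liver (3.07 to 5.67). SLC37A1 (gene17264), a glycerol-3-phosphate carrier, was lowest in the liver, at 6.74, 4.67 and 0.812, where its count was 7.69-fold and 5.37-fold lower. SLC37A4, the glucose-6-phosphate translocase that works with glucose-6-phosphatase, had no Swiss-Prot symbol, but the NR entry of gene3309 named it, and that gene was at 14.5, 18.0 and 19.2 with no call. It was 1 of 8 measured genes that only the NR entry placed in these families, of which 4 had no fragment.

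Among the SLC45A genes, the proton-associated sugar transporter PAST-A (SLC45A1, gene24629) was highest in the salivary glands. It was at 0.527 in the intestine-labelled library, 5.91 in the salivary glands and 1.41 in the liver, and its salivary gland count was 12.1-fold (6.90 to 23.2) and 4.23-fold (3.16 to 5.73) higher. SLC45A4 (gene26067) was at 5.11, 13.0 and 14.8, and its count in the intestine-labelled library was 2.82-fold lower than in the salivary glands and 3.38-fold lower than in the liver. SLC45A3 (gene18332) was the highest of the family in each library, at 16.7, 15.4 and 29.2, and its count was 2.05-fold higher in the liver than in the intestine-labelled library, while the FPKM gave a log2 ratio of 0.80. Both genes of SLC45A2, the carrier of pigment cells, had no fragment.

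Enzymes that meet the carried sugars were read from lists of symbols. For glucose phosphorylation and release, 7 of 12 symbols were found in 12 genes, and of 8 tested 5 were higher and 2 lower in the liver than in the intestine-labelled library, where 24.0% and 24.2% of all genes were. Glucose-6-phosphatase (G6PC, gene6665), which frees glucose for export, had 0, 0 and 8940 fragments, so that it was detected in the liver only, as was GLUT2. Hexokinase 1 (HK1, gene7149) ran the other way, at 25.4, 10.7 and 3.75, and its liver count was 6.40-fold lower than that of the intestine-labelled library.

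The brush border enzymes of sugar digestion were nearly absent outside the liver. None of the 7 genes was above an FPKM of 1 in the intestine-labelled library or the salivary glands. In the liver, 1 was, gene10946 with the symbol SI, whose NR entry is of the maltase-glucoamylase kind and which had 1, 1 and 6930 fragments. Trehalase (TREH, gene2108), which splits the blood sugar of insects, had 1, 0 and 1 fragments, and LCT had none.

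Partners of the monocarboxylate carriers were found for 7 of 8 symbols, in 14 genes, of which 12 were above an FPKM of 1 in each library. Basigin (BSG, gene4061), the chaperone of MCT1 and MCT4, was abundant and level, at 244, 207 and 182, whereas MCT1 itself differed 7.89-fold between the liver and the salivary glands. The lactate dehydrogenase subunit LDHB (gene10090) was at 520, 232 and 97.0. Both genes with the symbol LDHA were highest in the liver instead, gene16205 at 103, 78.8 and 294 and gene12947 at 3.91, 3.54 and 8.91. PDK4 (gene17239), which shuts off pyruvate oxidation, was at 125, 719 and 140 and 5.70-fold higher in the salivary glands than in the intestine-labelled library. The symbol PDK4 was shared by further genes. Gene3829, at 16.3, 39.0 and 18.4, and gene3044, at 3.82, 11.8 and 2.08, were also highest in the salivary glands. Gene22718 was highest in the liver, at 19.1, 56.1 and 71.2.

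Of nucleotide sugar synthesis, 12 of 26 symbols were found in 16 genes, and 15 of them were above 1 in each library. Of 15 tested, 7 were higher and 2 lower in the liver than in the intestine-labelled library (24.0% and 24.2% of all genes), and 4 higher and 2 lower than in the salivary glands (24.9% and 22.9% of all genes). TSTA3 (gene14162), the last enzyme of GDP-fucose synthesis, was at 23.3, 111 and 37.6, from 558, 2459 and 2615 fragments. Its scaled count in the salivary glands was 3.92-fold that of the intestine-labelled library. Against the liver it was only 1.42-fold, under the 2-fold threshold. UGDH (gene10854), which makes UDP-glucuronate, was at 12.8, 9.04 and 94.1, and its count was 6.31-fold and 8.89-fold higher in the liver.

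Of the Golgi glycosyltransferases, 9 of 14 symbols were found in 27 genes. Of 23 tested, 7 were higher and 8 lower in the liver than in the intestine-labelled library (24.0% and 24.2% of all genes), and 5 higher and 8 lower than in the salivary glands (24.9% and 22.9% of all genes). MGAT1 (gene3131), which starts complex N-glycans with N-acetylglucosamine, was at 20.8, 45.9 and 81.0. ST3GAL1 (gene10904), a sialyltransferase, was at 10.6, 7.17 and 55.7. The other gene with the symbol ST3GAL1 (gene10379), whose NR entry names a sialyltransferase of another linkage, was at 0.318, 55.5 and 0, from 12, 2414 and 0 fragments. ATP1B1 (gene1012), a subunit of the sodium pump that maintains the gradient used by the SLC5A carriers, was at 535 in the intestine-labelled library, 160 in the salivary glands and 32.5 in the liver.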

How the data were processed

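Paired reads of 3 libraries were cleaned and aligned by the authors with TopHat2 as unstranded to the M. javanica genome, whose build is not given in the sources used here. The deposited counts are whole numbers of fragments per gene and are not scaled. FPKM values were made by the authors, who name RSEM. Against TMM, the deposited FPKM moved the median log2 ratio of all genes by 0.03 for liver over small intestine. The shift was 0.13 for liver over salivary glands and 0.10 for small intestine over salivary glands. Library size alone moved it by 0.24, -0.22 and -0.46 in the same order, so the deposited FPKM did not follow the total counts. A further deposited score is close to the count times 1 factor per library and served as an alternative scaling. TMM factors (edgeR 4.0.16, R 4.3.3) were 0.851, 1.17 and 1.00 for small intestine, salivary glands and liver. Ratios of scaled counts carry 95% Clopper-Pearson intervals, and a count of 0 was set to 3. The calls were tried on simulated counts with planted changes well above the 2-fold threshold, in genes with ample counts. The intervals and the rule for a count of 0 were not checked in this way. No ratio was formed where both counts were 3 or less. Genes were named where their FPKM reached 10 in a library, where the study lists them, where names differ or where all counts are 0, with the 2 highest genes of each list except some that are not reported here, and any other gene was named after its values were seen. Members and lists were chosen with earlier results of these data known. Python 3.11.15, pandas 2.3.3, numpy 2.4.6, scipy 1.17.1 and matplotlib 3.10.9 were used.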

Additional observations from a re-analysis of the deposited data

How the results depend on the processing

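With 1 library per tissue and counts as low as a few fragments, the limits are the lack of replicates, copies of genes, overlap on an unstranded library and the markers of the intestine-labelled library. No paired analysis was possible because each group is a single library. Median-of-ratios scaling, library size alone, the authors' scaling, FPKM ratios, other count minimums and membership by NR entry kept every count of calls within 1.5 times. TMM factors from liver and salivary glands alone, added after seeing the data, gave 23 higher and 12 lower. At a 4-fold threshold (log2 ratio of 2) the calls higher and lower fell to 6 and 7 for intestine-labelled library against salivary glands, 14 and 5 for liver against intestine-labelled library, and 13 and 6 for liver against salivary glands. The shares of all genes at this threshold are not given, so these counts cannot be set against those of all genes. Above an FPKM of 5 were 24 genes in the intestine-labelled library and 22 in the salivary glands. No named ratio changed direction while called, and of called ratios 6 of 84 fell under 2-fold with FPKM, 5 of 90 with library size alone and 0 of 90 with median-of-ratios factors.

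Family sums in TPM, for intestine-labelled library, salivary glands and liver, were 157, 129 and 253 for SLC2A, 18.7, 25.2 and 131 for SLC5A, 71.1, 93.2 and 743 for SLC16A, 148, 231 and 343 for SLC35, 22.2, 47.6 and 11.9 for SLC37A, 31.2, 57.5 and 72.9 for SLC45A and 15.6, 93.3 and 21.1 for SLC50A. Without the highest member, the FPKM sums were 83.7, 52.9 and 118 for SLC2A, 2.99, 1.13 and 1.18 for SLC5A, 33.5, 36.8 and 178 for SLC16A, 78.0, 102 and 127 for SLC35, 9.16, 4.79 and 1.50 for SLC37A and 5.63, 19.0 and 16.2 for SLC45A.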
